A study of Mus musculus with 42 samples.

Results

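The genes described here are the immunoglobulin and T cell receptor segments of a mouse CD4 T cell RNA-seq experiment, taken as every row of the 4 deposited comparison tables whose annotated biotype begins with IG or TR. The gamma constant genes Tcrg-C1 and Tcrg-C2 were left out by the rule. This gave 78 genes of the 2828 genes in the tables, 48 of immunoglobulin loci and 30 of T cell receptor loci. The immunoglobulin genes were 42 variable and 6 constant genes. The receptor genes were 11 variable genes, 17 joining genes, 1 joining pseudogene and 1 constant gene. A gene stands in a table, and is called listed below, only where its unadjusted p at that time was under 0.05. Every listed segment had therefore passed that threshold already, so the number listed and their direction describe the tables and are not a test.

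The cells were naive CD4 T cells from spleens of C57BL/6 mice aged 8 weeks, with a conditional knockout of Trmt61a (cKO) or wild type (WT). Trmt61a is the catalytic subunit of the enzyme that methylates adenosine 58 of tRNAs. Cells were taken at 0 h, or at 3, 6 and 48 h of stimulation with antibodies to CD3 (5 µg/ml, bound to the plate) and CD28 (2 µg/ml), with 2 libraries per genotype and time. The labels name no Cre line for these mice and do not say whether the libraries of a group came from separate animals, so p-values measure the spread between these libraries, which may be technical. Trmt61a itself had 22.6 and 22.9 scaled read counts in cKO at 0 h, against 363 and 216 in WT, and was called lower in cKO at all 4 times. Scaled read counts are reads per gene divided by 1 factor per library. Each time has its own table and scaling, so levels at different times are set side by side below without a comparison.

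Immunoglobulin and T cell receptor genes are assembled in lymphocytes from separate variable, joining and, in some chains, diversity segments, and the joined exon is then spliced to a constant region. Heavy and light chain genes are rearranged and transcribed at high level in B cells and plasma cells, and CD4 T cells do not make antibody. In T cells with an alpha chain, the primary transcript starts at the chosen variable segment and runs through the chosen joining segment and all joining segments behind it to the constant gene Trac. Splicing removes the unused joining segments.

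The members lay in few places of the mm10 genome. The 23 heavy chain genes lay on chromosome 12 between 113269260 and 115862355, and the 24 kappa genes on chromosome 6 between 67896172 and 70726966. The single lambda gene, Iglc1, lay on chromosome 16 at 19061618 to 19062071. The 28 alpha genes lay on chromosome 14 between 52683964 and 54224206, and the 2 delta genes lay inside that interval. Apart from Tcrg-C1 and Tcrg-C2, which the rule left out, no beta or gamma segment was listed (0 genes). The variable segment Trav11 and the joining segment Traj18, which mark the invariant receptor of natural killer T cells, had 0 listings.

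Over the listed genes, the libraries held 423873 to 674416 reads at 0 h, 1784474 to 1940866 at 3 h, 846691 to 1117581 at 6 h and 3380554 to 4482346 at 48 h. These totals cover the listed genes only and are not the depth of a library. Several libraries stood apart. At 0 h, cKO library 2 was the highest library for 270 of the 297 genes listed as higher in cKO. Transcripts of pancreatic acinar cells summed to 895 and 6478 in cKO and to 3.87 and 11.9 in WT at 3 h, over 8 listed genes of 8. Transcripts of the submandibular gland summed to 2.94 and 6.31 in cKO and to 7348 and 665 in WT at 3 h, over 7 listed genes of 8. At 6 h the acinar sums were 98.9 and 1328 in cKO, against 0 and 13.8 in WT, and the submandibular sums were 0.96 and 0 in cKO, against 1915 and 141 in WT. At 0 h the submandibular sums were 4.91 and 1.14 in cKO, against 1207 and 2.77 in WT. Their part in the results below was not tested.

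Most listed immunoglobulin segments at 3 and 6 h were lower in cKO than in WT, and in most of them WT library 2 was the highest of the 4 libraries. Among all genes listed as lower in cKO, WT library 2 was the highest for 55.9% at 3 h and for 39.6% at 6 h. At 3 h, 30 immunoglobulin segments were listed, 1 as higher and 29 as lower in cKO. None of the 30 was called (0), where a call is an adjusted p under 0.05 in the authors' deposited table, while 23.2% of all 1091 genes listed at 3 h were. Of the 30, 6 had been set aside from the adjustment, as had 89 of all 1091 genes, and could not be called. By refits with limma, edgeR and DESeq2, 0 of the 30 were called, against 0%, 0% and 12.6% of all genes listed at 3 h, and 11, 15 and 16 of the 30 had an unadjusted p under 0.05. At 6 h, 20 were listed, 2 as higher and 18 as lower, and 2 of them (Igkc and Ighg3) were called lower in the authors' deposited table, where 3.24% of all 740 listed genes were called lower and 11.2% were called in either direction. The refits with limma, edgeR and DESeq2 called 0 of the 20, against 0%, 0% and 3.92% of all genes listed at 6 h, and 8 of the 20 had an unadjusted p under 0.05 in each. At 0 h and 48 h, 4 and 3 immunoglobulin segments were listed and 0 were called in the authors' deposited tables, where 0.781% and 19.7% of all listed genes were. All 3 of 48 h had been set aside from the adjustment, as had 93 of all 1195 genes listed then. None of these 3 could be called there. The refits with limma, edgeR and DESeq2 called 0 of them as well, against 0%, 1.56% and 0.781% of all listed genes at 0 h and 0.418%, 0.586% and 17.2% at 48 h. They gave an unadjusted p under 0.05 to 1, 1 and 1 of them at 0 h and to 2, 3 and 3 at 48 h. For receptor segments the picture differed by time, with 22 listed at 0 h, of which 20 were higher in cKO. Only 3, 4 and 3 receptor segments were listed at 3, 6 and 48 h, and 0 were called at any of the 4 times in the authors' deposited tables. Of the 3 at 3 h, 2 had been set aside and could not be called, as had 2 of the 3 at 48 h. The limma, edgeR and DESeq2 refits called 0 receptor segments too. At 0 h they gave 4, 7 and 4 of the 22 an unadjusted p under 0.05. For these refits the share of all listed genes with an unadjusted p under 0.05 was not counted. Every listed gene had passed that threshold in the deposited test, so these counts of segments are descriptions only.

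**Figure D1:**
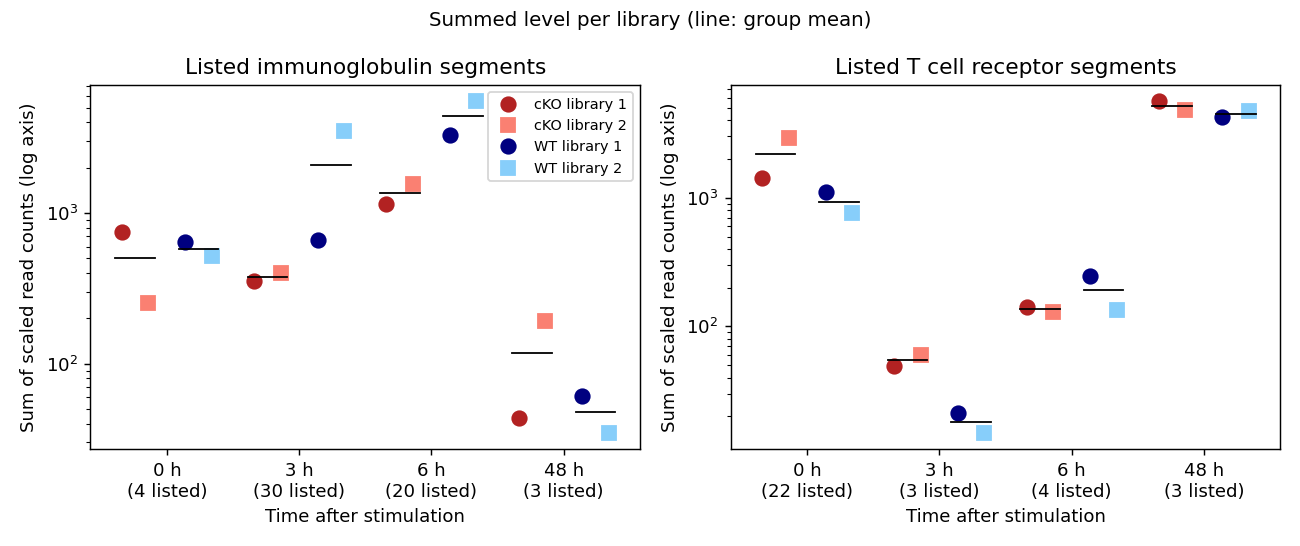
Summed scaled read count (log axis) of the listed immunoglobulin segments (left) and T cell receptor segments (right) in each library, by time after stimulation; lines are the means of the 2 libraries of a group, and each time sums a different set of genes. For immunoglobulin at 3 h, WT library 2 (3517) lies far above the other 3 libraries (356 to 662), and for receptor segments at 0 h cKO library 2 (2914) lies above the others.

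The summed level of the listed segments shows how much 1 library carried. At 3 h the 30 immunoglobulin segments summed to 356 and 403 scaled read counts in cKO, and to 662 and 3517 in WT. WT library 1 was thus nearer to the cKO libraries than to WT library 2. At 6 h the 20 segments summed to 1145 and 1569 in cKO, and to 3320 and 5514 in WT, with no overlap between the groups. The 4 segments of 0 h summed to 749 and 251 in cKO and to 638 and 522 in WT, which overlap. The 3 segments of 48 h summed to 43.7 and 192 in cKO and to 61.1 and 34.9 in WT, which overlap too. Sums over segments chosen by being listed are descriptions only.

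The constant regions, of which those of the heavy chain define the antibody class, were led by Igkc. Igkc, the kappa light chain constant region (chromosome 6, 70726435 to 70726966), had 874 and 1167 scaled read counts in cKO at 6 h, against 2684 and 3239 in WT. The groups did not overlap, and Igkc averaged 1021 ± 207 in cKO and 2962 ± 392 in WT (SD, n = 2 each). Its log2 fold change of cKO over WT was -1.54, with an adjusted p of 0.00255 in the authors' deposited table. In refits on the listed genes its adjusted p was 0.516 with DESeq2 and 1 with limma, so the call rests on the deposited test. The DESeq2 refit gave a log2 fold change of -1.54 for Igkc with all 4 libraries and of -1.39 without WT library 2. Per kilobase, Igkc was the highest immunoglobulin constant region listed at 6 h, at 1918 in cKO and 5567 in WT on average, while Ighg2c averaged 60.5 and 266 and Ighg3 averaged 24.6 and 155.

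Ighg3, the heavy chain constant region of IgG3, had 50.9 and 72.8 scaled read counts in cKO at 6 h, against 132 and 647 in WT. WT library 2 was far above the other 3, and the groups did not overlap. The log2 fold change was -2.66, with an adjusted p of 0.0284 in the authors' deposited table, and 0.396 in the DESeq2 refit. Without WT library 2 the refit gave -1.09, against -2.66 with all 4 libraries. Ighg2c, the constant region of IgG2c, had 79.7 and 80.7 in cKO at 6 h, against 66.6 and 639 in WT. Here WT library 1 lay below both cKO libraries, and the log2 fold change of Ighg2c was -2.14 in the authors' deposited table, while the DESeq2 refit without WT library 2 gave 0.27.

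The other constant regions were listed at 0, 3 or 48 h. Iglc1, a lambda light chain constant region, had 78.3 and 69.4 scaled read counts in cKO at 3 h, against 110 and 350 in WT (log2 fold change -1.64). Ighe, the constant region of IgE, had 0 and 0 in cKO at 3 h, against 1.93 and 27.9 in WT. With a floor of 3 reads over the cKO group, Ighe was at least 9.79-fold lower in cKO at 3 h, a bound that covers counting error only and rests on WT library 2, since WT library 1 had only 1.93. At 48 h, Ighe had 1.98 and 4.33 in cKO and 27.9 and 13.7 in WT (log2 fold change -2.74). Ighe was thus lower in cKO without overlap at both times, from few reads, and its adjusted p in the authors' deposited table was 1 at both, a value given to genes set aside from the adjustment.

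Ighg2b and Ighg2c had another order at 48 h. Ighg2b, the constant region of IgG2b, had 12.9 and 71.4 scaled read counts in cKO at 48 h, against 10.5 and 11.6 in WT. Ighg2c had 28.8 and 117 in cKO at 48 h, against 22.7 and 9.51 in WT. In both genes cKO library 2 was the highest and cKO library 1 lay near WT, and neither was called in the authors' deposited table (adjusted p of 1). At 0 h, Ighg2b had 282 and 106 in cKO, against 469 and 417 in WT, with a log2 fold change of -1.19 and an adjusted p of 0.999 in the authors' deposited table.

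**Figure D2:**
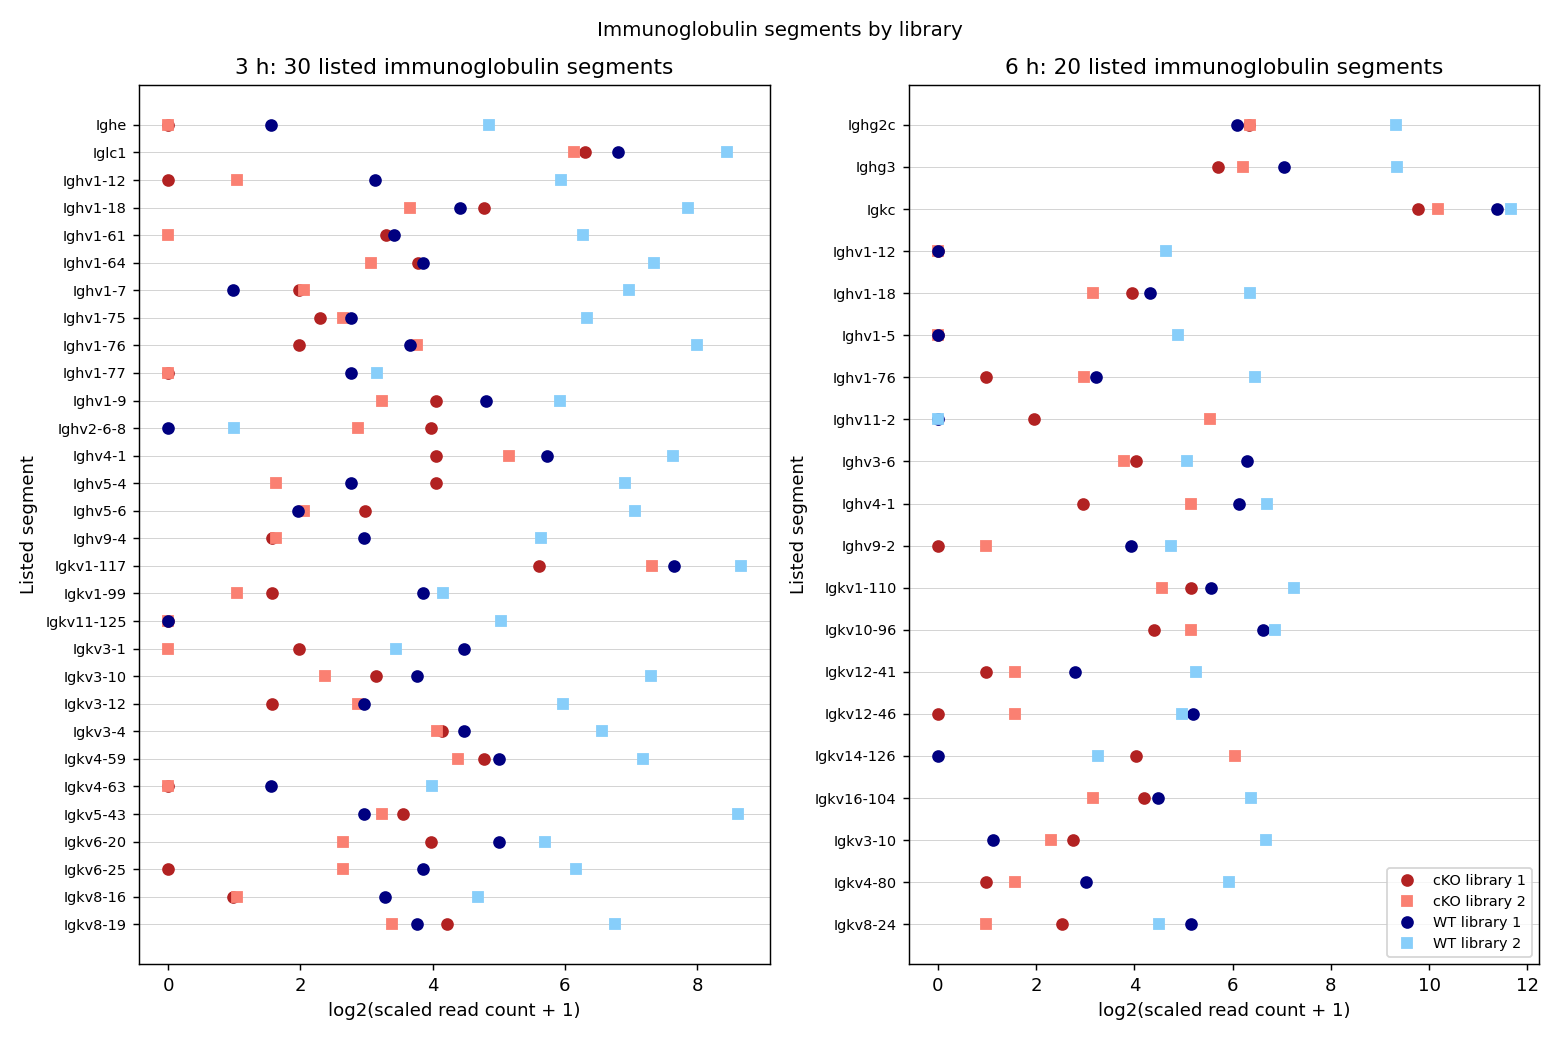
Level of each listed immunoglobulin segment, as log2(scaled read count + 1), in the 2 cKO (red) and 2 WT (blue) libraries at 3 h (left, 30 segments) and 6 h (right, 20 segments), constant regions first. WT library 2 (light blue squares) is the rightmost point for 28 of the 30 segments at 3 h and 15 of the 20 at 6 h.

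The heavy chain variable segments encode the part of the heavy chain that meets antigen, and 14 of them were listed at 3 h. Of these, 13 were lower and 1 (Ighv2-6-8) was higher in cKO, and their sum was 128 and 97.8 scaled read counts in cKO, against 170 and 1559 in WT. The Ighv1 family gave 9 of the 14. Ighv1-76 had the highest single value, with 2.94 and 12.6 in cKO and 11.6 and 256 in WT. Ighv1-18 had 26.4 and 11.6 in cKO, against 20.3 and 233 in WT. In both, WT library 1 lay among the cKO values and WT library 2 alone stood above.

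Ighv1-12 and Ighv4-1 showed WT library 1 above cKO as well. Ighv1-12 had 0 and 1.05 scaled read counts in cKO at 3 h, against 7.74 and 60.7 in WT (log2 fold change -6.07, adjusted p 0.0828 in the authors' deposited table). Ighv4-1 had 15.7 and 34.7 in cKO at 3 h, against 52.2 and 197 in WT (log2 fold change -2.31, adjusted p 0.13 in the authors' deposited table). Ighv1-64 had 12.7 and 7.36 in cKO at 3 h, against 13.5 and 162 in WT. For Ighv1-64 the lower WT library differed from the higher cKO library by less than 1 scaled read count, so the absence of overlap says little there. Ighv2-6-8, named after its values were seen, had 14.7 and 6.31 in cKO at 3 h, against 0 and 0.996 in WT.

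The kappa variable segments encode the same part of the light chain. All 14 listed at 3 h were lower in cKO, and their sum was 150 and 236 scaled read counts in cKO, against 380 and 1580 in WT. Igkv3-10 had 7.83 and 4.21 in cKO at 3 h, against 12.6 and 156 in WT, and the lowest adjusted p of the immunoglobulin segments of 3 h in the authors' deposited table, 0.0573. Igkv1-117 had 47.9 and 159 in cKO, against 199 and 405 in WT. Igkv5-43 had 10.8 and 8.41 in cKO, against 6.77 and 391 in WT, with a log2 fold change of -4.38 in the authors' deposited table and of 0.50 in the DESeq2 refit without WT library 2. Igkv3-1, named after its values were seen, was the only segment of the 29 lower ones that was highest in WT library 1, with 2.94 and 0 in cKO and 21.3 and 9.96 in WT.

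The levels of WT library 2 at 3 h were spread over many segments. Its 5 highest segments held 46.5% of its summed immunoglobulin level, and 19 of the 30 segments were at least 5 times as high in WT library 2 as in WT library 1. The median ratio of WT library 2 to WT library 1 was 7.79 over the 28 segments above 0 in both WT libraries. It was 1.00 over all listed genes of 3 h above 0 in both. Of the 29 segments listed as lower in cKO at 3 h, 21 did not overlap between the groups and 8 did. Among all genes listed at 3 h, 46.7% were lower in cKO without overlap, which is 509 of the 521 listed as lower.

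Leaving out WT library 2 at 3 h, in a DESeq2 refit, 23 of the 30 segments were lower and 6 higher in cKO, and 1 had no reads left. The median log2 fold change over the segments was then -0.95, and 0 of the 30 had an unadjusted p under 0.05, where 23.5% of all listed genes did. Leaving out WT library 1 instead gave a median of -4.06 with 29 lower, and 16 had an unadjusted p under 0.05, where 25.9% of all listed genes did. The size of the difference at 3 h thus depended on which WT library was used.

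At 6 h, 17 variable segments were listed, and 15 of them were lower in cKO. The 8 heavy variable segments summed to 40.3 and 108 scaled read counts in cKO, against 188 and 382 in WT. The 9 kappa variable segments summed to 99.8 and 141 in cKO, against 250 and 606 in WT. WT library 2 was the highest library in 12 of the 17, and the median ratio of WT library 2 to WT library 1 was 3.54 over the 16 immunoglobulin segments above 0 in WT library 1. As at 3 h, both sums of WT library 1 also lay above both cKO libraries. Of the 18 immunoglobulin segments listed as lower in cKO at 6 h, 14 did not overlap between the groups. Among all genes listed at 6 h, 47.7% were lower without overlap, which is 353 of the 381 listed as lower.

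Igkv12-46 and Igkv10-96 were lower in cKO at 6 h in both WT libraries alike. Igkv12-46 had 0 and 1.97 scaled read counts in cKO at 6 h, against 35.7 and 30.2 in WT (log2 fold change -5.08, adjusted p 0.14 in the authors' deposited table). Igkv10-96 had 20.2 and 34.4 in cKO, against 97.5 and 116 in WT (log2 fold change -1.97, adjusted p 0.238 in the authors' deposited table). In these segments the WT libraries were closer to each other than to either cKO library. Neither was called.

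Ighv11-2 and Igkv14-126 were the 2 immunoglobulin segments listed as higher in cKO at 6 h. Ighv11-2 had 2.88 and 45.3 scaled read counts in cKO, against 0 and 0 in WT, a cKO mean at least 15.6-fold higher against a floor of 3 reads over the WT group. Igkv14-126, which the naming rule did not select, had 15.4 and 64.9 in cKO, against 0 and 8.63 in WT (log2 fold change 3.17). Both were highest in cKO library 2, and neither was called (adjusted p 0.189 and 0.928 in the authors' deposited table). In the mouse these 2 segments are known as the heavy and light chain pair of B-1 cell antibodies to phosphatidylcholine, which is given as background only.

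Without WT library 2 at 6 h, 14 of the 20 immunoglobulin segments were lower and 4 higher in cKO in the DESeq2 refit, with a median log2 fold change of -1.25, and 1 had an unadjusted p under 0.05, where 28.65% of all listed genes did. Without WT library 1 the median was -2.95, and 7 had an unadjusted p under 0.05, where 23.1% of all listed genes did. The median over the 20 segments in the authors' deposited table was -2.41. Over all genes listed at 6 h it was -0.72, but these mix 359 listed as higher with 381 listed as lower. The median over the segments stayed negative without either WT library, and its size differed. Since the segments were listed through all libraries together, this direction is a description and not a test. Without WT library 2, the segments counted neither as lower nor as higher had no reads left.

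The same 5 variable segments were listed as lower in cKO at both 3 and 6 h: Ighv1-12, Ighv1-18, Ighv1-76, Ighv4-1 and Igkv3-10. They were 16.7% of the 30 immunoglobulin segments of 3 h and 25% of the 20 of 6 h. The share of all listed genes that were listed at both times was not counted, so these shares are descriptions only. At 6 h, Ighv4-1 had 6.72 and 34.4 scaled read counts in cKO, against 69.0 and 104 in WT, and the groups did not overlap. Ighv1-76 had 0.96 and 6.89 in cKO at 6 h, against 8.32 and 87.2 in WT, and Ighv1-18 had 14.4 and 7.87 in cKO, against 19.0 and 80.3 in WT. Igkv3-10 had 5.76 and 3.94 in cKO, against 1.19 and 101 in WT, so WT library 1 lay below both cKO libraries. Ighv1-12 had reads in WT library 2 alone at 6 h, with 0 and 0 in cKO and 0 and 24.2 in WT. In 4 of the 5 segments at 6 h WT library 2 was at least 4 times as high as any other library, Ighv4-1 being the exception.

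**Figure D3:**
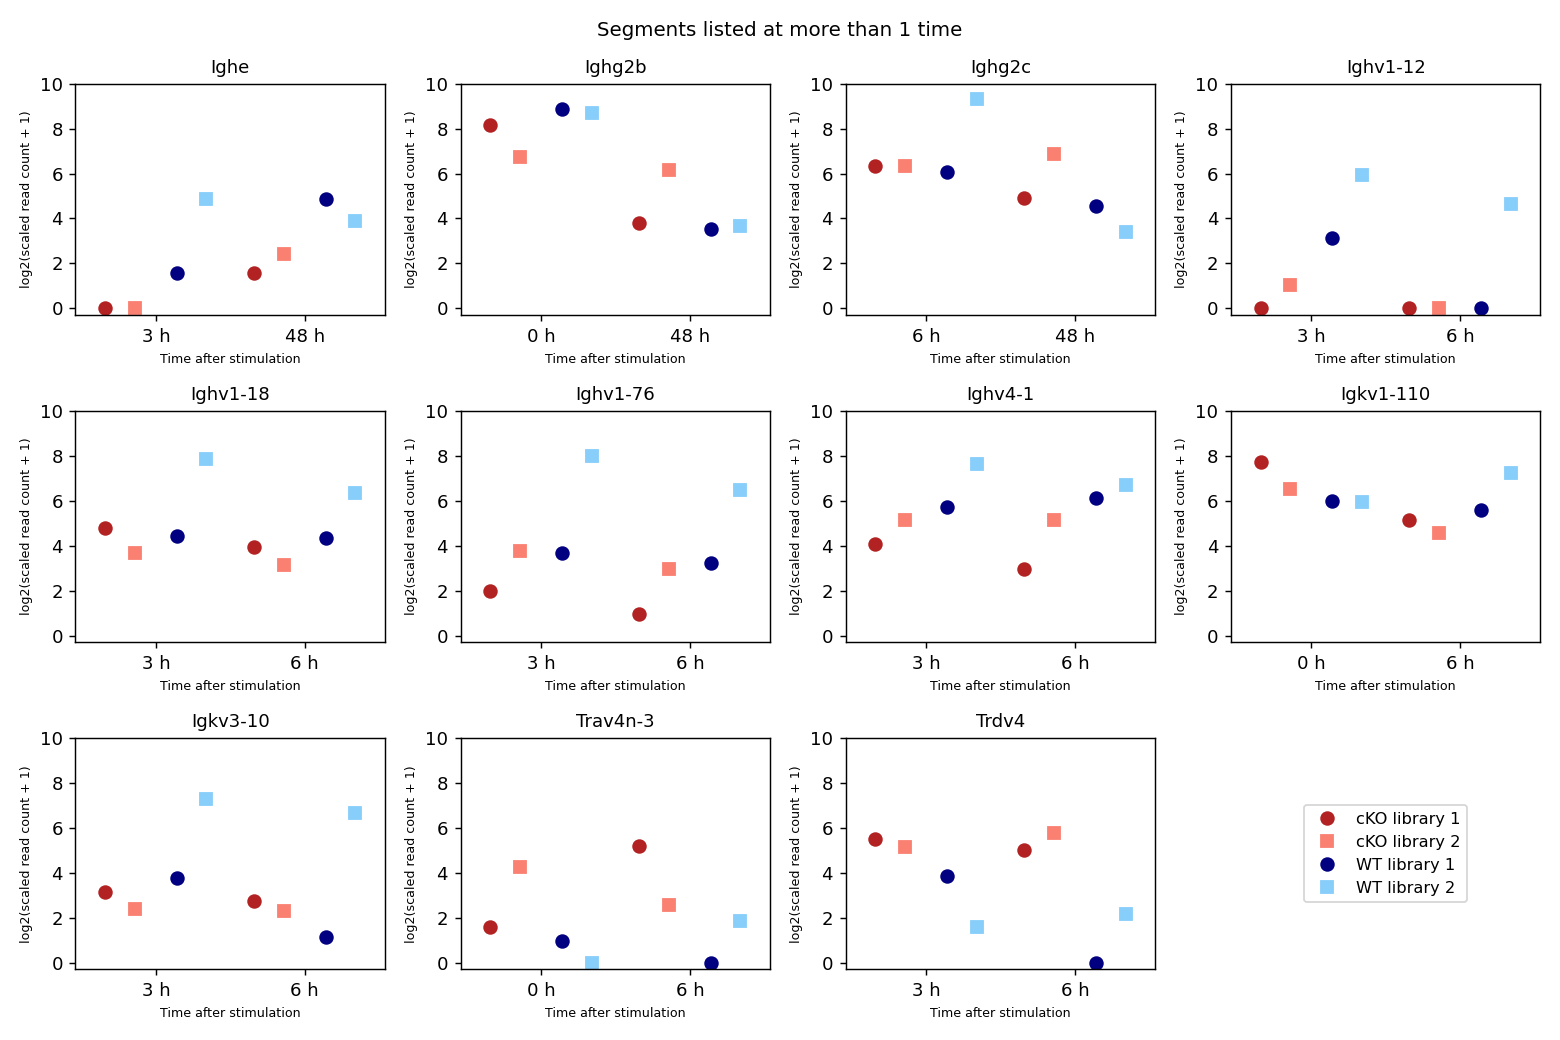
Level of the 11 segments listed at more than 1 time, as log2(scaled read count + 1), in each cKO (red) and WT (blue) library at the times at which each was listed; times were scaled separately. WT library 2 is the highest library in all 5 variable segments shared by 3 and 6 h, and Trdv4 is higher in both cKO libraries than in both WT libraries at 3 and 6 h.

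At 0 h, 3 immunoglobulin variable segments were listed. Igkv1-110 had 209 and 90.3 scaled read counts in cKO at 0 h, against 61.6 and 60.9 in WT (log2 fold change 1.29), and at 6 h it had 34.6 and 22.6 in cKO, against 46.4 and 150 in WT (log2 fold change -1.79). Its groups did not overlap at either time, and the direction was opposite. Ighv5-17 had 256 and 50.3 in cKO at 0 h, against 71.9 and 35.1 in WT, so the groups overlapped. Igkv4-61 had 1.96 and 4.57 in cKO at 0 h, against 35.5 and 9.23 in WT.

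The markers of the cells that make antibody were mostly not listed. Of 18 B cell markers, 0 were listed at 0, 3 and 48 h and 2 at 6 h. H2-Eb1, a chain of MHC class II, had 752 and 1051 in cKO at 6 h, against 272 and 470 in WT. Blnk, an adaptor of the B cell receptor, had 12.5 and 38.4 in cKO at 6 h, against 124 and 50.9 in WT. These 2 differed between the genotypes in opposite directions, and neither was called in the authors' deposited table. Levels of markers that are not listed, such as Ms4a1, were not analysed here, so it cannot be said whether they were at 0.

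Of 10 plasma cell markers, 3 were listed at 3 h. Mzb1, a chaperone of antibody secretion, had 23.5 and 41.0 scaled read counts in cKO at 3 h, against 87.0 and 159 in WT, and was called lower in the authors' deposited table. Of the 3 markers, only Mzb1 was called, where 23.2% of all genes listed at 3 h were called. Irf4 and Prdm1, which activated T cells also express, were listed as higher in cKO at 3 h. Irf4 averaged 34737 in cKO and 25888 in WT, and Prdm1 averaged 241 in cKO and 144 in WT. Both the Mzb1 level and the immunoglobulin sum were highest in WT library 2. In bulk RNA, fewer cells of a type and less RNA per cell cannot be told apart. Genes of class switching and hypermutation had 0 of 8 listed at each time, and of 12 immunoglobulin-binding receptors 1 was listed at 0 h (Pigr), 1 at 3 h and 1 at 6 h (Trim21 at both). Pigr was lower in cKO and not called. Trim21 was higher in cKO at both times, averaging 684 against 339 in WT at 3 h and 873 against 253 at 6 h. Trim21 was called at 3 h, where 23.2% of all listed genes were, and not at 6 h.

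Among T cell receptor genes, the alpha joining segments formed the largest group. At 0 h, 16 alpha joining segments were listed, and all 16 were higher in cKO and highest in cKO library 2. They summed to 1276 and 2785 scaled read counts in cKO, against 1067 and 734 in WT. Their log2 fold changes ran from 0.92 to 1.96 with a median of 1.19. Over all 384 genes listed at 0 h the median was 0.97, but these mix 297 listed as higher with 87 listed as lower. None was called (adjusted p 0.999 in the authors' deposited table). In 14 of the 16 the groups did not overlap, and 67.4% of all genes listed at 0 h were likewise higher in cKO without overlap, which is 259 of the 297 listed as higher.

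Traj6, the listed joining segment of 0 h nearest to Trac, had 104 and 286 scaled read counts in cKO, against 105 and 96.0 in WT. The groups overlapped, since cKO library 1 lay between the WT libraries. Traj30 had 74.7 and 121 in cKO, against 42.9 and 27.7 in WT (log2 fold change 1.47), and Traj28 had 69.7 and 133 in cKO, against 48.5 and 28.6 in WT (log2 fold change 1.39). Traj17 had 97.2 and 209 in cKO, against 68.1 and 51.7 in WT (log2 fold change 1.35). In Traj30, Traj28 and Traj17 both cKO libraries lay above both WT libraries. Traj11 had 98.2 and 263 in cKO, against 76.5 and 77.5 in WT, and Traj9 had 132 and 209 in cKO, against 108 and 72.0 in WT.

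The joining segments of 0 h shared an ordering along the locus that the rule did not use. They lay between 7.83 and 42.6 kb before the start of Trac, and they are short, at 37 to 65 bases. Per kilobase, levels were lower the farther a segment lay from Trac, in every library. Traj40, the farthest, had 290 and 955 per kilobase in cKO, against 230 and 90.8 in WT. Traj6, the nearest, had 1679 and 4608 per kilobase in cKO, against 1701 and 1548 in WT. Across the 16 segments, Pearson's r between the level per kilobase and the distance was -0.82 and -0.95 in the cKO libraries and -0.89 and -0.96 in the WT libraries, with Spearman's rho of -0.80 and -0.94 in cKO and -0.90 and -0.95 in WT. Segments of 1 library share its depth and its scaling, so these are descriptions of the libraries.

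**Figure D4:**
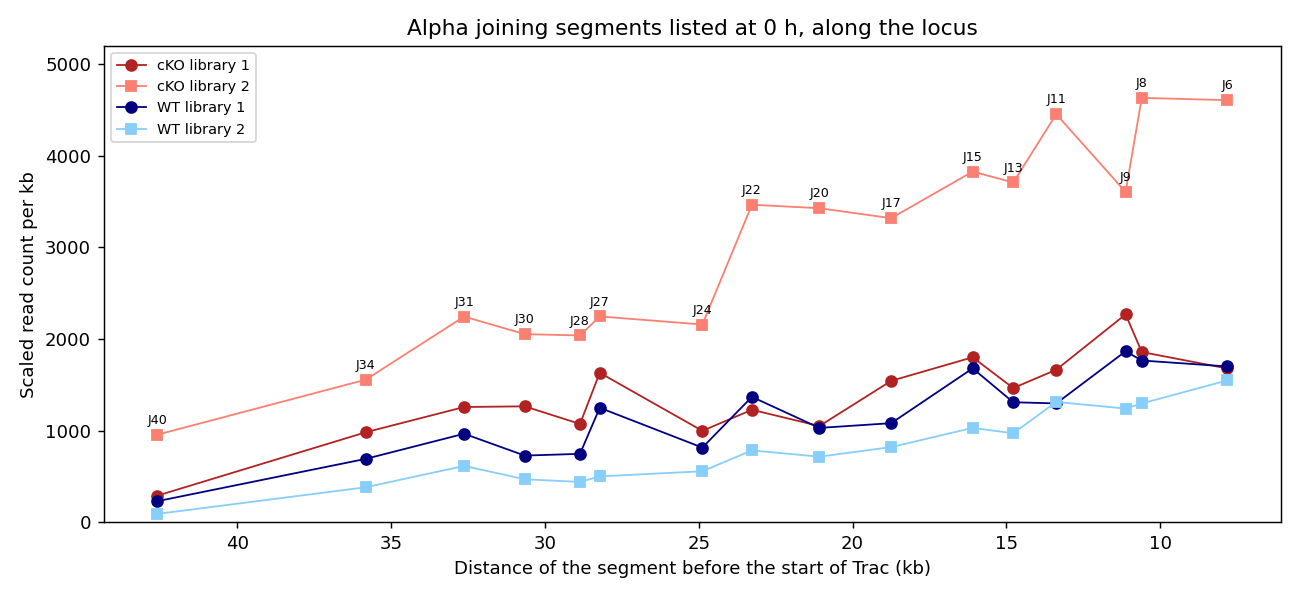
Scaled read count per kilobase of the 16 alpha joining segments listed at 0 h (J6 for Traj6 and so on) against their distance before the start of Trac in kb, the right end being nearest to Trac; each line is 1 library. All 4 lines are higher toward Trac, and cKO library 2 (light red squares) is the highest at every segment.

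The 2 cKO libraries of 0 h differed from each other in the joining segments. The ratio of cKO library 2 to cKO library 1 had a median of 2.16 over the 16 segments (range 1.38 to 3.30). The median was 1.67 over all genes listed at 0 h with a value above 0 in both cKO libraries. Relative to the WT mean, cKO library 1 had a median ratio of 1.46 (range 1.03 to 2.11) and cKO library 2 of 3.18 (range 2.32 to 5.97). Without cKO library 2, all 16 remained higher in cKO in the DESeq2 refit, with a median log2 fold change of 0.54 and 0 with an unadjusted p under 0.05, where 6.25% of all listed genes had one. Without cKO library 1 the median was 1.67 and 8 had an unadjusted p under 0.05, against 54.7% of all genes listed at 0 h.

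At 6 h, 2 other joining segments were listed, both as lower in cKO. Traj2 had 53.7 and 65.9 scaled read counts in cKO, against 157 and 107 in WT (log2 fold change -1.14). Traj21 had 20.2 and 5.90 in cKO, against 91.6 and 21.6 in WT (log2 fold change -2.11). The groups did not overlap in either, though the higher cKO value of Traj21 lay close to the lower WT value, and both were highest in WT library 1. Neither was called (adjusted p 0.999 in the authors' deposited table), and neither was listed at 0 h.

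Trac, the alpha constant region (chromosome 14, 54220521 to 54224206) that every alpha chain carries, was listed at 48 h only. Trac had 5543 and 4713 scaled read counts in cKO at 48 h, against 4201 and 4726 in WT. The groups overlapped, the log2 fold change was 0.20, and the adjusted p was 0.448 in the authors' deposited table. Trac averaged 5128 ± 587 in cKO and 4464 ± 371 in WT (SD, n = 2 each), and per kilobase it averaged 5485 in cKO and 4774 in WT. The joining segments were thus listed at 0 h without Trac.

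Alpha variable segments encode the part of the alpha chain that meets antigen, and 9 were listed in all, 8 of them named as copies d or n of the duplicated stretch of the mouse alpha locus. Such copies are nearly identical, as are many Ighv1 and Igkv segments, so reads may be split or lost between copies and each value is uncertain. At 0 h, 4 were higher and 2 were lower in cKO. Trav7d-2 had 147 and 3.43 scaled read counts in cKO, against 2.80 and 3.69 in WT, and the lowest adjusted p of the receptor segments of 0 h in the authors' deposited table, 0.228. Trav4n-4 had 0.982 and 73.1 in cKO, against 2.80 and 0.923 in WT. In each of Trav7d-2 and Trav4n-4 a single cKO library was high, a different one in each gene, and the other cKO library was at WT level. For Trav4n-4 the log2 fold change was 4.31 in the authors' deposited table and -0.92 in the DESeq2 refit without cKO library 2.

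Trav4n-3 was the alpha variable segment listed at 2 times. Trav4n-3 had 1.96 and 18.3 scaled read counts in cKO at 0 h, against 0.933 and 0 in WT, and 35.5 and 4.92 in cKO at 6 h, against 0 and 2.59 in WT. It was higher in cKO at both times without overlap, with the higher cKO library being library 2 at 0 h and library 1 at 6 h. The lower cKO library and the higher WT library held only 2 and 1 reads at 0 h, and 5 and 3 at 6 h. The absence of overlap thus says little, and Trav4n-3 was not called (adjusted p 0.999 at both times in the authors' deposited table). At 3 h, Trav7n-6 had 4.89 and 25.2 in cKO, against 0 and 0.996 in WT, and Trav7d-5 had 0 and 0 in cKO, against 7.74 and 11.9 in WT. These 2 copies of the Trav7 family were thus opposite in direction, both from few reads and both with an adjusted p of 1 in the authors' deposited table. At 48 h, Trav3-3 had 58.6 and 62.7 in cKO, against 31.4 and 28.5 in WT. The libraries of each genotype were close for Trav3-3, its log2 fold change was 1.02, and its adjusted p was 1 in the authors' deposited table.

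The delta variable segments belong to the receptor of gamma-delta T cells, a lineage apart from CD4 T cells with alpha and beta chains. Trdv4 had 44.0 and 34.7 scaled read counts in cKO at 3 h, against 13.5 and 1.99 in WT (log2 fold change 2.34, adjusted p 0.499 in the authors' deposited table). At 6 h it had 31.7 and 53.1 in cKO, against 0 and 3.45 in WT (log2 fold change 4.51, adjusted p 0.116 in the authors' deposited table). Both cKO libraries lay above both WT libraries at both times, and Trdv4 was not called at either. Trdv2-2 had 5.95 and 5.41 in cKO at 48 h, against 0 and 0 in WT, a cKO mean at least 3.93-fold higher against a floor of 3 reads over the WT group.

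**Figure D5:**
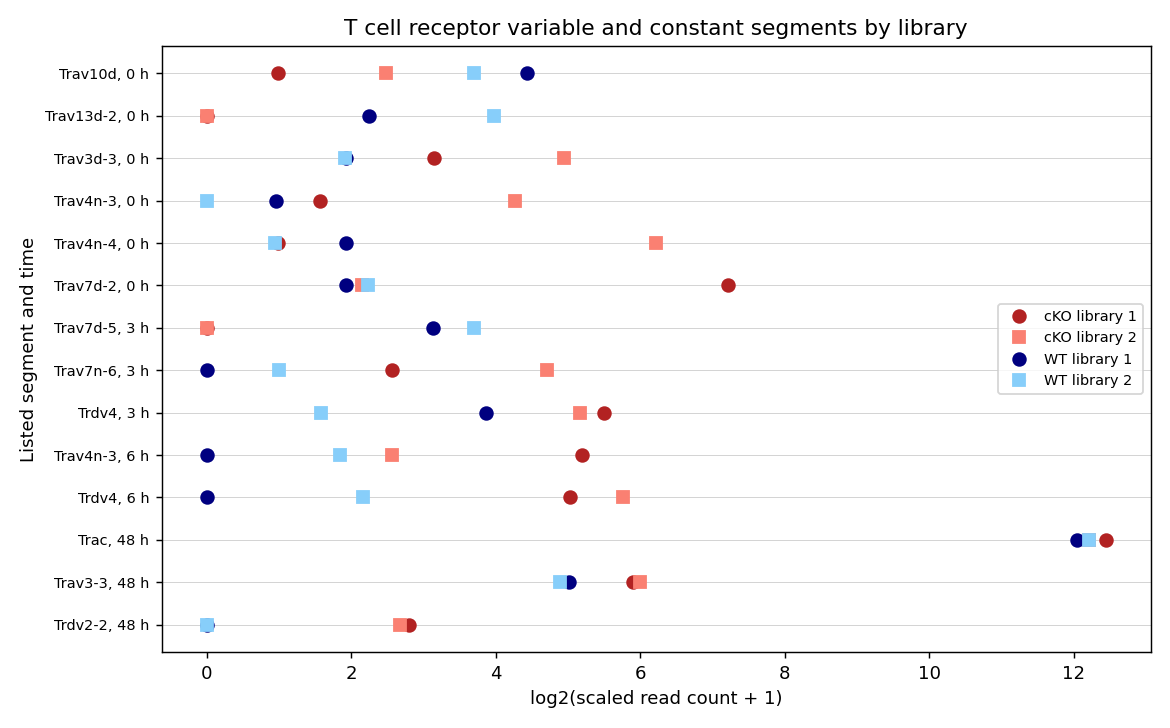
Level of the listed T cell receptor variable and constant segments, as log2(scaled read count + 1), in each cKO (red) and WT (blue) library, ordered by time. Trav7d-2 and Trav4n-4 are high in 1 cKO library each, whereas both cKO libraries lie above both WT libraries for Trdv4 at 3 h and 6 h.

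Other genes of T cell lineages give the setting of Trdv4. Of 13 markers of CD8, natural killer, invariant natural killer T and gamma-delta T cells, 6 were listed at 3 h, all higher in cKO. Of these 6, 1 was called (Eomes), where 23.2% of all genes listed at 3 h were called. The 6 summed to 829 and 686 in cKO, against 327 and 233 in WT. At 6 h, 2 were listed, Eomes and Nkg7, both higher in cKO, summing to 403 and 287 in cKO and to 159 and 127 in WT. Tcrg-C1, a gamma constant gene on that list, had 28.4 and 43.1 in cKO at 3 h, against 10.6 and 3.98 in WT. At 48 h, 2 were listed in opposite directions. Tcrg-C2 had 9.92 and 48.7 in cKO at 48 h, against 7.85 and 7.39 in WT, and was not called, whereas Eomes had 944 and 973 in cKO, against 1481 and 1242 in WT, and was called lower in the authors' deposited table. Among all genes listed at 48 h, 19.7% were called in either direction. Whether these levels bear on Trdv4 was not tested.

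Of 13 genes of the T cell receptor complex and its first signalling steps, 0 were listed at 0 and 6 h. At 3 h the adaptor Lat had 8934 and 10196 in cKO, against 15808 and 12539 in WT, and the kinase Lck had 9261 and 11166 in cKO, against 14045 and 12876 in WT. Neither was called in the authors' deposited table. At 48 h, 5 were listed, 4 higher and 1 lower in cKO. Of these 5, 1 was called (the adaptor Lcp2), where 19.7% of all genes listed at 48 h were called. Lcp2 had 14943 and 13883 in cKO, against 11199 and 12178 in WT. Of 11 genes of V(D)J recombination, Prkdc was listed at 6 h and Hmgb1 at 48 h, both lower in cKO and neither called. Rag1, Rag2 and Dntt were not listed at any time.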

How the data were processed

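RNA-seq tables of 0, 3, 6 and 48 h were used, with 2 libraries per genotype and time. Per the file headers, each deposited table compares cKO with WT and gives, per gene, a log2 fold change with a p-value before and after adjustment; the test behind them is not given in the sources used here. The authors deposited per-library values as a signal, which are read counts divided by 1 factor per library: within a tolerance of 0.01, 100% of the values were whole multiples of the library's smallest step. Tools named without a role in the submitters' processing notes are featureCounts 1.5.0-p3, HISAT2 2.0.5, Bowtie2 2.4.1 and Trim Galore 0.6.6, and the build named there is mm10. The labels' protocols name a directional library kit; how strand was used in counting is not given in the sources used here.

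Genes whose p before adjustment was 0.05 or more are left out of the tables, so a call is the authors' deposited adjusted p under 0.05. Behind the adjustment lay 24502, 15399, 16602 and 9940 genes in order of time, as recovered from the p-values. Refits used limma 3.58.1 on log2(value + 1), edgeR 4.0.16 and DESeq2 1.42.0 on the recovered reads of the listed genes (R 4.3.3). Their p-values had Benjamini-Hochberg adjustment over those numbers. Being fitted on genes chosen for a low p, the refits do not replace the deposited test. They were run on simulated counts too, with the same spread for every gene and no selection on p. Those settings differ from these data, so that run does not show how well the refits perform here.

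No library columns were identical (0 pairs). All 78 segments matched RefSeq symbols (GRCm38.p6), and coordinates are those of the deposited tables. Floors cover counting error only. Segments, gene lists and settings were chosen with earlier results of these data known. Named were Trmt61a; every segment called, listed at 2 or more times or coding for a constant region; per time and class the 5 lowest p and the 3 highest means; and up to 4 listed genes per marker list. Alternatives were pseudocounts of 0.5 and 10, a mean of at least 10, other scalings, the replicate block, sums on another scale or without the highest gene or the constant regions, and each library left out. WT libraries of 18 h and the other assays were not used here.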

Additional observations from a re-analysis of the deposited data

Results flagged for a closer look

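Ighg2b had opposite directions at 2 times. At 0 h it was lower in cKO, with a log2 fold change of -1.19, and at 48 h it was higher, with 1.93, and the libraries of the genotypes did not overlap at either time. Igkv1-110 was higher in cKO at 0 h, with a log2 fold change of 1.29, and lower at 6 h, with -1.79, again without overlap. In both genes the difference between the times was not tested, since the tables of different times were scaled separately. At 48 h the Ighg2b value rests on cKO library 2, which had 71.4 scaled read counts, against 12.9 in cKO library 1.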

How the results depend on the processing

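The 2 immunoglobulin calls of 6 h (Igkc and Ighg3) came from the authors' deposited table; limma with a pseudocount of 1, 0.5 or 10 or a mean of at least 10, edgeR with either scaling, and DESeq2 with either scaling each gave 0, as did each refit without 1 library (0 to 0); of all genes listed at 6 h these settings called 0% to 5.54%. The replicate block gave 0 at 6 h with limma and with DESeq2 and changed no other call. For listed genes with a mean of at least 10, the log2 difference between library 1 and library 2 was taken within each genotype. The differences in cKO and in WT correlated at 0.0597, -0.108, 0.0338 and 0.126 at 0, 3, 6 and 48 h. The numbers were therefore not taken as pairs. Whether same-numbered libraries share more is not in the labels. The crossed pairing at 3 h, chosen after seeing the data, gave 0 calls, against 0% of all listed genes with limma and 12% with DESeq2. DESeq2 with its own size factors called 1 receptor segment at 48 h, against 26.5% of all listed genes. Without 1 library, calls ranged from 0 to 1 for immunoglobulin at 0 h (Ighg2b without cKO library 1, against 20.6% of all listed genes), 0 to 2 for immunoglobulin at 3 h (Ighv1-76 and Igkv5-43 without WT library 1, against 7.33%) and 0 to 1 for receptor segments at 0 h (Trav7d-2 without cKO library 2, against 0.521%). Without 1 library, log2 ratios of the immunoglobulin sums ranged from -1.21 to 0.37 at 0 h, -3.21 to -0.80 at 3 h, -2.02 to -1.29 at 6 h and -0.14 to 2.00 at 48 h. Those of the receptor sums ranged from 0.62 to 1.64 at 0 h, 1.36 to 1.86 at 3 h, -0.88 to 0.0086 at 6 h and 0.089 to 0.32 at 48 h. Without the highest segment or the constant regions the immunoglobulin sum at 0 h gave 1.16. Receptor sums gave 0.59 as a share of listed reads at 0 h, and without the highest segment 0.54 at 3 h, 0.34 at 6 h and 1.15 at 48 h. Across refits without 1 library, the log2 fold changes that changed sign ranged from -0.92 (without cKO library 2) to 5.33 for Trav4n-4 and from -0.088 (without cKO library 1) to 2.26 for Ighv5-17, both at 0 h, from -5.35 to 0.50 for Igkv5-43 at 3 h, and from -2.99 to 0.27 for Ighg2c and -4.38 to 2.03 for Igkv3-10 at 6 h, where the positive values of the last 3 segments were those without WT library 2; the cause was not tested. Of the other values of named segments without 1 library, 174 kept direction and side of the threshold, 8 (Igkc and Ighg3) lost the call and 4 gained one. Depth limits the segments with few reads, such as Ighe and Trdv2-2, and 2 libraries per group limit every test.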
